A study of Ovis aries with 6 samples.

Results

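Glycolysis genes and genes of the hypoxia response were followed in sheep cells that overexpressed MEOX2, a homeobox transcription factor of the mesoderm. The members were the rows of the deposited table whose gene name was one of 33 listed symbols, and 30 of the 33 were present among 26425 rows. Of 19 symbols of glycolytic enzymes 17 were present, and of 14 symbols of the hypoxia response 13 were. PGAM1, ENO1 and BNIP3L had no row under those names and were not analysed here.

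The 6 libraries comprised 3 from cells overexpressing MEOX2 and 3 from the control group labelled NC, and the columns of both groups carry the prefix pHBLV. The design text names the cells as sheep SVFs, the stromal vascular fraction of adipose tissue, while the sample labels call them adipocytes. The sources used here do not give animals, culture medium, time of harvest or oxygen level. Values were FPKM, reads scaled to gene length and library size, and rested on 11772772 to 12230863 reads per library.

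In glycolysis, cytosolic enzymes split glucose into pyruvate, and lactate dehydrogenase can turn the pyruvate into lactate. The flow is set largely at hexokinase, phosphofructokinase and pyruvate kinase, and PFKFB enzymes make and remove fructose 2,6-bisphosphate, the allosteric activator of phosphofructokinase. HIF1A and EPAS1 are the oxygen-labile subunits of the hypoxia-inducible factors. Prolyl hydroxylases of the EGLN family mark them for destruction when oxygen is present. When oxygen is scarce, these factors raise many glycolytic genes together with ADM, VEGFA, CA9 and other targets. Fat tissue can become poorly oxygenated as it expands.

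The introduced gene matched the labels. MEOX2 was at 133 ± 23.0 FPKM in MEOX2 cells and 9.98 ± 0.910 FPKM in NC cells (SD, n = 3 each), a 13.3-fold difference with a limma adjusted p of 1.15e-05. Its two-sided exact permutation p was 0.1, and no comparison of 3 with 3 samples can go lower. Among stromal progenitor markers, PDGFRA was at 174 ± 4.65 FPKM in MEOX2 cells and 150.4 ± 15.4 FPKM in NC cells (SD, n = 3 each), and THY1 at 206 ± 17.7 FPKM in MEOX2 cells and 209 ± 4.51 FPKM in NC cells. Limma called none of the 11 tested, 5 had an unadjusted limma p under 0.05 (3 lower, 2 higher, against 13.4% of all genes), and limma voom called ENG lower. The MEOX2 and NC values did not overlap for 7 of these 11 (3 lower, 4 higher), against 18.9% of all genes. Of 13 mature adipocyte markers, LEP and RETN had 0 reads in every library, and the summed level of the 13 was 133 to 153 FPKM in MEOX2 cells and 304 to 366 FPKM in NC cells. Of the 9 tested, ADIPOQ, FABP4, PLIN1, PPARG and CIDEC fell (limma adjusted p = 6.02e-05, 3.24e-04, 0.0221, 0.00875 and 0.0241), against 1.16% of all genes called lower. The calls of PLIN1 and CIDEC needed all 6 libraries. The MEOX2 values lay all under the NC values for 7 of these 9, against 9.33% of all genes. Limma voom called 6 of the 9 lower, against 2.04% of all genes. The summed stromal markers were 15592 to 17226 FPKM in MEOX2 cells and 14288 to 14949 FPKM in NC cells, and the summed macrophage and leukocyte markers 123 to 134 FPKM in MEOX2 cells and 115 to 123 FPKM in NC cells. The 4 macrophage and leukocyte markers tested were split, 2 with negative and 2 with positive log2 differences, from -0.48 to 0.35. Limma called 0 of these 4, and limma voom called 1 lower, against 2.04% of all genes. In 1 the MEOX2 values lay all under the NC values and in 1 all above, against 9.33% and 9.60% of all genes. The leukocyte gene PTPRC had at most 2 reads in any library, and the red blood cell list summed to at most 0.136 FPKM and the skeletal muscle list to at most 1.56 FPKM in any library. In such bulk samples, fewer cells of a type and less RNA per cell cannot be told apart. On the second principal component (22.2% of variance), NC sample 3 was far from the rest, and the members' values that it moved are given below. Nothing in the labels says whether the 3 samples of a group came from separate animals or cultures, so the p-values reflect the spread among these samples alone, and that spread may be technical.

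Differences below are MEOX2 minus NC on the log2(FPKM + 1) scale from limma, with Benjamini-Hochberg adjustment over the 13121 genes whose mean reached 1 FPKM, and a gene was called at an adjusted p under 0.05. A difference on this scale understates the change of genes with low FPKM. Of the 13121 genes, 350 (2.67%) were called, 152 of them lower with MEOX2 (1.16%) and 198 higher (1.51%). The tested members of the main chain of glycolysis had close mean levels in both groups. Among 15 glycolytic enzymes tested, PFKFB3 fell and the other 14 were not called. Among 13 hypoxia response genes tested, ADM fell and the other 12 were not called. No member was called higher by limma or by limma voom, and none was higher at an unadjusted limma p under 0.05, against 7.08% of all genes higher at that unadjusted level.

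Several enzymes of the glycolytic chain were among the most abundant transcripts of these cells. The 17 rows summed to 1.72% ± 0.0648 of all FPKM in MEOX2 cells and 1.74% ± 0.0405 in NC cells (SD, n = 3 each). Of all FPKM, GAPDH alone made up 0.866% ± 0.0539 in MEOX2 cells and 0.862% ± 0.0112 in NC cells. GAPDH, which oxidises glyceraldehyde 3-phosphate, ranked 5 of all 26425 rows by mean FPKM. It was at 6435, 5675 and 5491 FPKM in the MEOX2 samples and 5799, 5996 and 5686 FPKM in the NC samples. The NC values lay inside the range of the MEOX2 values, and the log2 difference was 0.0069 (95% interval -0.19 to 0.20). PKM, the pyruvate kinase of most tissues, followed at 1577 ± 27.9 FPKM in MEOX2 cells and 1644 ± 119 FPKM in NC cells (SD, n = 3 each), and LDHA, which makes lactate from pyruvate, at 1018 ± 79.9 FPKM in MEOX2 cells and 1035 ± 18.0 FPKM in NC cells. Next came TPI1, which interconverts the triose phosphates, at 843 ± 17.9 FPKM in MEOX2 cells and 859.9 ± 117 FPKM in NC cells, and then PGK1 and GPI, whose means over all 6 samples, 701 and 699 FPKM, differed by less than their spread.

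**Figure D1:**
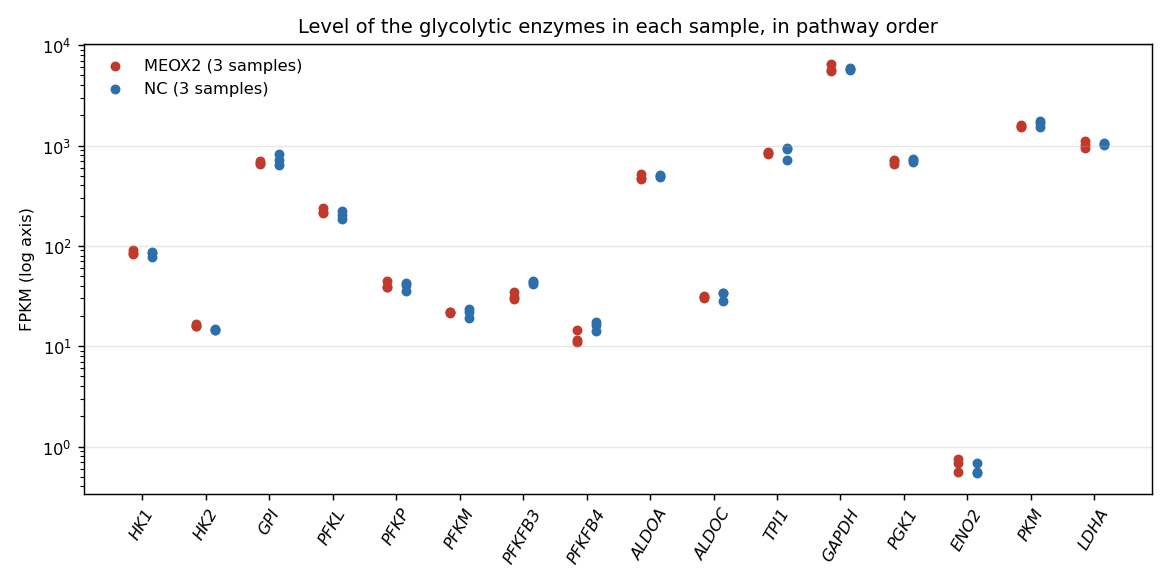
FPKM of 16 glycolytic rows in each sample on a log axis, in pathway order, with MEOX2 samples in red left of NC samples in blue. The points of both groups lie at nearly the same height in most columns, while at PFKFB3 all MEOX2 points lie under the NC points; GAPDH is the highest row and ENO2, at 0.665 FPKM in MEOX2 cells and 0.594 FPKM in NC cells, the lowest.

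At the entry step, HK1 was at 86.0 ± 4.16 FPKM in MEOX2 cells and 83.4 ± 4.81 FPKM in NC cells (SD, n = 3 each). HK2, the insulin- and hypoxia-responsive hexokinase, was at 15.7, 16.5 and 15.8 FPKM in the MEOX2 samples and 14.6, 14.9 and 14.5 FPKM in the NC samples. The HK2 groups did not overlap, yet the difference was 0.12 (SE 0.078) and was not called (limma adjusted p = 0.596). GPI, which converts glucose 6-phosphate to fructose 6-phosphate, was at 700.4, 668 and 649 FPKM in the MEOX2 samples and 714, 819 and 641 FPKM in the NC samples. NC sample 2 was the highest for GPI and NC sample 3 the lowest, so the groups overlapped, and the difference of -0.10 (SE 0.096) was not called (limma adjusted p = 0.738). It was -0.19 without NC sample 3 and -0.010 without NC sample 2.

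Phosphofructokinase commits the sugar to glycolysis. Its liver-type subunit PFKL was at 239, 216 and 214 FPKM in the MEOX2 samples and 204, 222 and 186 FPKM in the NC samples. The groups overlapped and the difference, 0.13 (SE 0.087), was not called (limma adjusted p = 0.596). It was 0.066 without NC sample 3, 0.080 without MEOX2 sample 1 and 0.19 without NC sample 2. PFKL supplied 78.1% ± 0.183 of the summed phosphofructokinase FPKM in MEOX2 cells and 77.0% ± 0.868 in NC cells (SD, n = 3 each). PFKP supplied 14.2% ± 0.271 in MEOX2 cells and 14.9% ± 0.360 in NC cells, and PFKM, the muscle-type subunit, 7.66% ± 0.394 in MEOX2 cells and 8.11% ± 0.530 in NC cells. The level of PFKP was 40.6 ± 3.20 FPKM in MEOX2 cells and 39.5 ± 3.79 FPKM in NC cells, and that of PFKM 21.8 ± 0.173 FPKM in MEOX2 cells and 21.5 ± 2.12 FPKM in NC cells.

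The glycolytic member called was an enzyme that sets the activator of phosphofructokinase. PFKFB3 (chromosome 13, 10675423 to 10691395, plus strand, in the coordinates of the deposited table, whose build is not given in the sources used here) is the PFKFB form with the strongest bias towards making fructose 2,6-bisphosphate. It was at 34.7, 29.6 and 30.7 FPKM in the MEOX2 samples and 43.7, 44.9 and 41.3 FPKM in the NC samples, with 622 to 927 reads per library. Every MEOX2 value lay under every NC value. PFKFB3 was 26.8% lower in MEOX2 cells, a log2 difference of -0.44 (SE 0.086, 95% interval -0.64 to -0.25) with a limma adjusted p of 0.0342. Its call held without MEOX2 sample 1 (limma adjusted p = 0.0409) or NC sample 3 (0.0477) and was lost without MEOX2 sample 2 (0.106), MEOX2 sample 3 (0.137), NC sample 1 (0.146) or NC sample 2 (0.103).

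PFKFB4, a second PFKFB form that hypoxia also induces, was at 14.6, 10.9 and 11.5 FPKM in the MEOX2 samples and 17.3, 14.3 and 16.1 FPKM in the NC samples. MEOX2 sample 1 lay above NC sample 2, so the groups overlapped. The log2 difference of PFKFB4, -0.35 (SE 0.12), was not called (limma adjusted p = 0.241). The share of PFKFB3 in the sum of both forms was 72.0% ± 1.48 in MEOX2 cells and 73.1% ± 2.33 in NC cells (SD, n = 3 each), a gap smaller than the spread.

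From aldolase to lactate dehydrogenase the differences of the members tested were small. PGAM1 and ENO1 had no row under those names. A row named PGAM4 and the enolase ENO3, which are no members, are given below. ALDOA, the main aldolase here, was at 487 ± 27.8 FPKM in MEOX2 cells and 500.2 ± 14.7 FPKM in NC cells (SD, n = 3 each). It supplied 94.1% ± 0.352 of aldolase FPKM in MEOX2 cells and 94.0% ± 0.441 in NC cells (SD, n = 3 each), the rest being ALDOC, the aldolase best known from brain, at 30.8 ± 0.743 FPKM in MEOX2 cells and 31.7 ± 3.26 FPKM in NC cells. PGK1, the first enzyme of the chain to yield ATP, was at 697, 715 and 649.7 FPKM in the MEOX2 samples and 735, 718 and 689 FPKM in the NC samples. Its groups overlapped and its difference was -0.055 (SE 0.071, limma adjusted p = 0.829). Leaving PFKFB3 and PFKFB4 aside, the 13 other enzymes tested had log2 differences between -0.10 for GPI and 0.13 for PFKL. The 95% intervals of these 13 differences lay between -0.32 and 0.33, that is, between 0.801-fold and 1.26-fold on the log2(FPKM + 1) scale. These bounds are the outermost ends, from GPI and PFKL, and the interval of each gene was narrower. A change inside a gene's own interval was not excluded with 3 samples a group.

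A pair of members could not be tested, since they were under the filter of 1 FPKM. ENO2, the enolase best known from neurons, had 46 to 68 reads per library and averaged 0.665 ± 0.1004 FPKM in MEOX2 cells and 0.594 ± 0.0761 FPKM in NC cells (SD, n = 3 each). The row named LDHB had at most 2 reads in any library. It spans 1017 bases with a gene length of 1017 bases, so it has no intron, and its nearest named neighbours in the table are CNTN5 and JRKL. RefSeq (assembly ARS-UI_Ramb_v3.0) places LDHB between KCNJ8 and GYS2. The values of that row are therefore not given as the level of LDHB, the heart-type lactate dehydrogenase. A row named PGAM4, which is no member, lies between RRP12 and EXOSC1, the same neighbours that PGAM1 has in RefSeq. This PGAM4 row was at 1270 ± 98.3 FPKM in MEOX2 cells and 1165 ± 103 FPKM in NC cells (SD, n = 3 each) and was not called (limma adjusted p = 0.635). How the authors counted reads that match several places is not given, so GAPDH, PGK1, TPI1, LDHA and other genes with processed copies are uncertain to that extent. The PGK1 row overlaps that of TAF9B, a gene of far lower level.

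**Figure D2:**
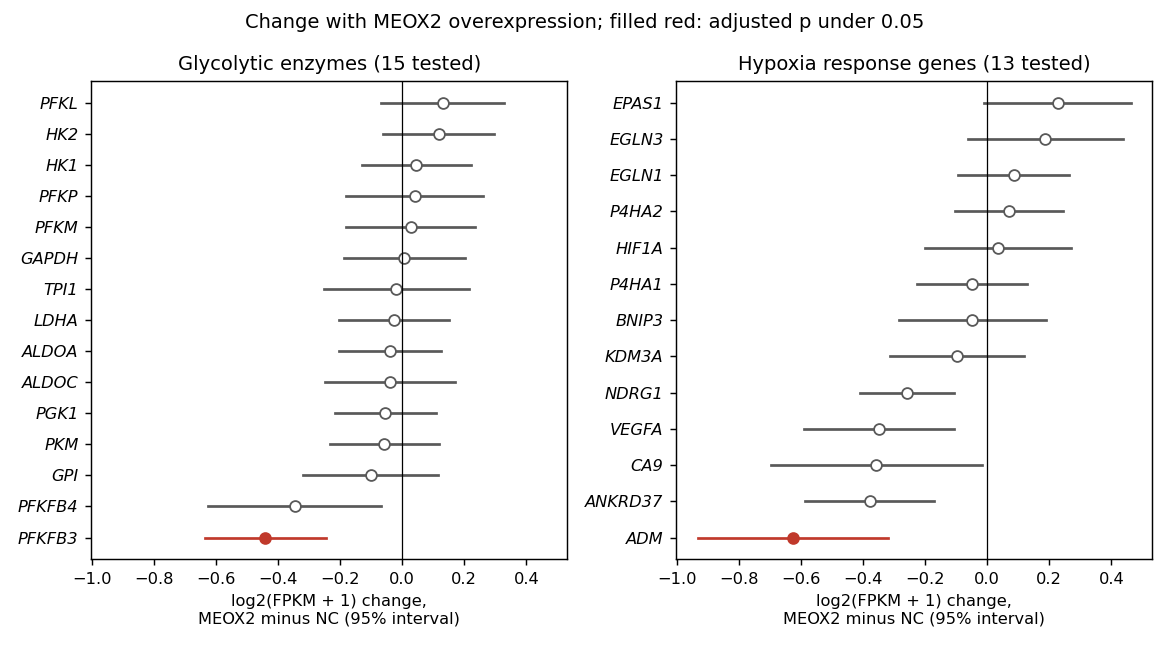
Difference in log2(FPKM + 1), MEOX2 minus NC, with its 95% interval for 15 glycolytic enzymes (left) and 13 hypoxia response genes (right), sorted by size; filled red points have a limma adjusted p under 0.05. PFKFB3 at -0.44 and ADM at -0.63 are the filled points, and most other enzymes sit near 0.

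Among the hypoxia response genes, the sensors and factors were not called. HIF1A, the widely expressed oxygen-labile subunit, was at 280.4 ± 5.29 FPKM in MEOX2 cells and 276 ± 39.7 FPKM in NC cells (SD, n = 3 each), the NC samples spreading from 236 to 315 FPKM. EPAS1, also called HIF-2 alpha, was at 459.9, 366 and 452 FPKM in the MEOX2 samples and 339, 355 and 393 FPKM in the NC samples. MEOX2 sample 2 lay between NC samples 2 and 3, and the difference of 0.23 (SE 0.104) was not called (limma adjusted p = 0.400). EGLN1, the main HIF prolyl hydroxylase, was at 63.7 ± 4.12 FPKM in MEOX2 cells and 59.95 ± 2.65 FPKM in NC cells (SD, n = 3 each), a difference of 0.086 (SE 0.079). EGLN3, the hydroxylase that hypoxia induces most, was at 88.8 ± 8.11 FPKM in MEOX2 cells and 78.1 ± 9.91 FPKM in NC cells, a difference of 0.19 (SE 0.11, limma adjusted p = 0.532). The EGLN3 difference was 0.080 without NC sample 3 and 0.12 without MEOX2 sample 1. HIF protein, which is what oxygen controls, was not measured.

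ADM was the member with the largest difference. It encodes adrenomedullin, a secreted vasodilator peptide and HIF target (chromosome 15, 41939209 to 41943314, minus strand). Its level was 137, 191 and 190.2 FPKM in the MEOX2 samples and 294, 249.6 and 251 FPKM in the NC samples, with 5133 to 11622 reads per library. Every MEOX2 value lay under every NC value, MEOX2 sample 1 being the lowest and NC sample 1 the highest. ADM was 34.7% lower in MEOX2 cells, a log2 difference of -0.63 (SE 0.13, 95% interval -0.93 to -0.32). Its limma adjusted p of 0.0498 was just under the threshold. Leaving out any 1 library ended the call, with limma adjusted p values from 0.0615 without MEOX2 sample 1 to 0.182 without NC sample 1, while the difference stayed between -0.71 and -0.47.

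Other secreted or surface targets had lower values in MEOX2 cells but were not called. VEGFA, the main angiogenic growth factor induced by HIF, was at 144, 121 and 159 FPKM in the MEOX2 samples and 188, 186 and 166 FPKM in the NC samples. The groups did not overlap, and the difference was -0.35 (SE 0.11, limma adjusted p = 0.160). CA9, a membrane carbonic anhydrase used as a hypoxia marker, was at 6.02, 7.57 and 4.61 FPKM in the MEOX2 samples and 7.73, 7.87 and 8.15 FPKM in the NC samples. Its MEOX2 values scattered widely, the highest falling just under the lowest NC value, and it rested on 79 to 141 reads per library. The CA9 difference was -0.36 (SE 0.15, limma adjusted p = 0.340), and it was -0.20 without MEOX2 sample 3.

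A pair of intracellular targets showed the same arrangement. ANKRD37, a small ankyrin-repeat protein whose gene is a HIF1 target, was at 115, 134 and 109 FPKM in the MEOX2 samples and 163, 153 and 149 FPKM in the NC samples. The ANKRD37 groups did not overlap, and the difference was -0.38 (SE 0.091, limma adjusted p = 0.0771). Without MEOX2 sample 2, ANKRD37 was called (limma adjusted p = 0.0448). NDRG1, a stress-responsive gene induced by hypoxia, was at 622, 627 and 609 FPKM in the MEOX2 samples and 743, 766 and 713 FPKM in the NC samples. Both NDRG1 groups were tight and apart, with a difference of -0.26 (SE 0.067, limma adjusted p = 0.0993).

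**Figure D3:**
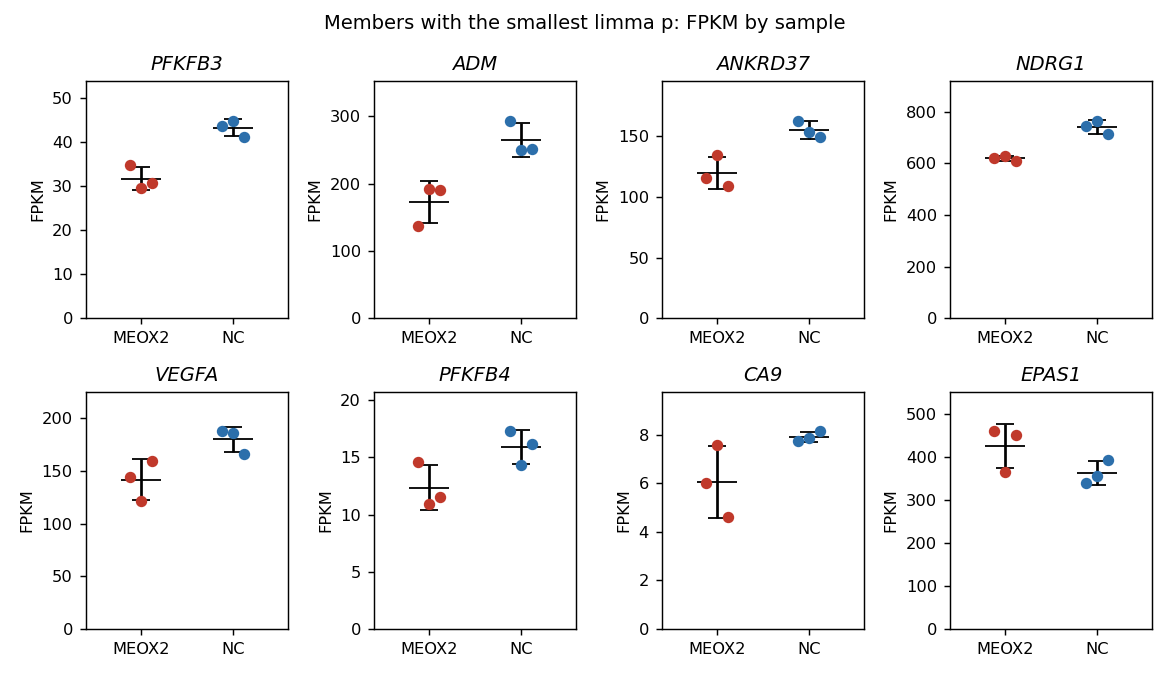
FPKM by sample for the 8 members with the smallest limma p, MEOX2 (red) left of NC (blue), with the mean and SD of 3 samples as bars. PFKFB3, ADM, ANKRD37, NDRG1, VEGFA and CA9 have all MEOX2 points under all NC points, whereas the points of PFKFB4 and EPAS1 overlap between groups.

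The other hypoxia targets had close mean levels. BNIP3, which drives removal of mitochondria, was at 625 ± 42.0 FPKM in MEOX2 cells and 649 ± 82.0 FPKM in NC cells (SD, n = 3 each). P4HA1 and P4HA2 are catalytic subunits of collagen prolyl hydroxylase. P4HA1 was at 423 ± 32.5 FPKM in MEOX2 cells and 437 ± 14.2 FPKM in NC cells, and P4HA2 at 297 ± 13.7 FPKM in MEOX2 cells and 283 ± 18.3 FPKM in NC cells. KDM3A, a histone H3 lysine 9 demethylase, was at 11.9 ± 0.762 FPKM in MEOX2 cells and 12.8 ± 0.928 FPKM in NC cells. None of these was called by limma or by limma voom.

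Counted together, 5 of the 13 hypoxia response genes had MEOX2 values all under the NC values, namely ADM, VEGFA, CA9, NDRG1 and ANKRD37, and none had them all above. Over all genes tested, 9.33% lay all under and 9.60% all above. The same 5 genes had an unadjusted limma p under 0.05, against 6.35% of all genes lower at that level. Among the 15 glycolytic enzymes, PFKFB3 lay all under and HK2 all above, and PFKFB3 and PFKFB4 had an unadjusted p under 0.05. Limma voom on the recovered reads called 4.17% of all genes, 2.04% lower and 2.13% higher. By limma voom, ADM, VEGFA, NDRG1 and ANKRD37 were lower (adjusted p = 9.82e-04, 0.0301, 0.0156 and 0.0226), as was PFKFB3 (0.00289). The median difference was -0.048 for the hypoxia response genes and -0.027 for the glycolytic enzymes, against -0.0027 for all genes tested. The 13 hypoxia response rows summed to 0.474%, 0.484% and 0.495% of all FPKM in the MEOX2 samples and 0.525%, 0.515% and 0.516% in the NC samples. The members were listed with results of these data known, so these counts are a description of the members and not an independent test. The mature adipocyte markers were lower in the same samples, and their part in these differences was not tested.

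**Figure D4:**
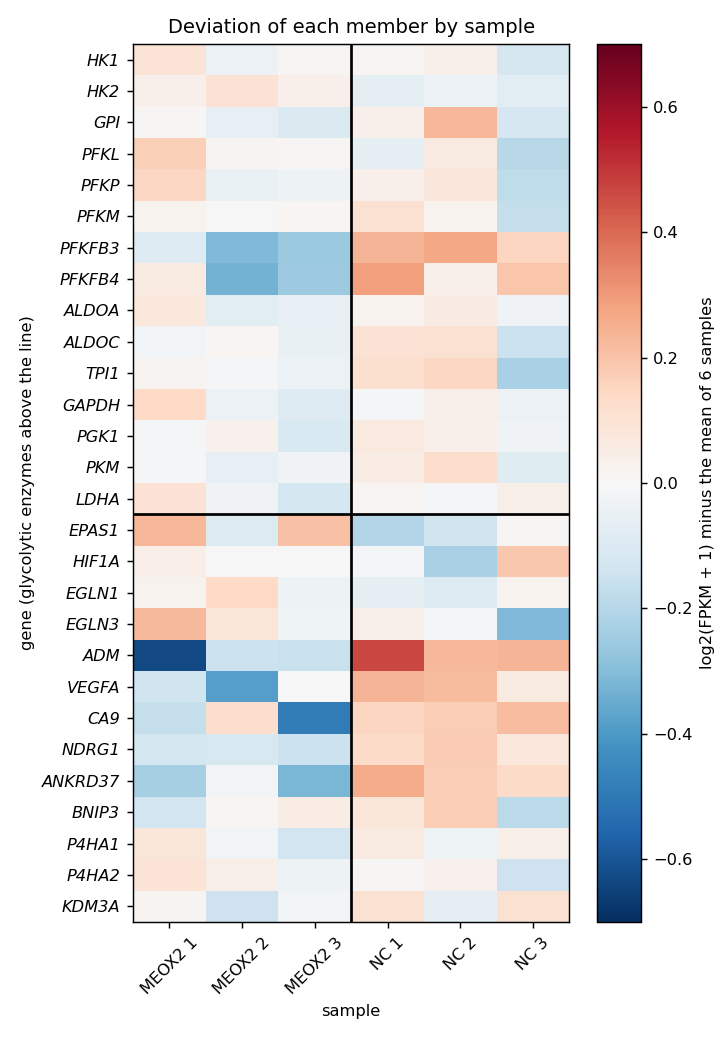
Deviation of each tested member from its own mean over the 6 samples, in log2(FPKM + 1), with MEOX2 samples left of NC samples and glycolytic enzymes above the horizontal line. ADM, VEGFA, NDRG1, ANKRD37 and PFKFB3 are blue or near white in MEOX2 samples and red in NC samples, while NC sample 3 is blue for most glycolytic enzymes.

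The lowest value of the 6 samples was that of NC sample 3 for 9 of the 15 glycolytic enzymes tested, namely HK1, HK2, GPI, PFKL, PFKM, PFKP, ALDOC, TPI1 and PKM. Summed FPKM over all genes was also lowest in NC sample 3, at 659554 against 663771 to 693634 in the other samples. How often NC sample 3 held the lowest value over all genes was not counted. Its TPI1 level was 725 FPKM, against 825 to 860.3 FPKM in the MEOX2 samples and 918 and 937 FPKM in NC samples 1 and 2. The median deviation of the glycolytic enzymes in that library was -0.085, against -0.053 to 0.034 in the MEOX2 samples and 0.038 and 0.060 in NC samples 1 and 2. Without NC sample 3, the log2 differences of 11 of the 28 members tested moved by over 1.5 times and 4 others changed sign, none of them called. The sign changed for HK1, PFKM, PFKP and GAPDH (-0.0025, -0.050, -0.038 and -0.011 without it). Besides GPI, PFKL and EGLN3, the moved values were -0.061 for ALDOA, -0.13 for ALDOC, -0.14 for TPI1, -0.11 for PKM, -0.014 for LDHA, -0.15 for BNIP3, 0.14 for HIF1A and 0.016 for P4HA2. For ADM, VEGFA, CA9, NDRG1 and ANKRD37 that library, like the other NC samples, lay above all MEOX2 samples. For VEGFA it was at 166 FPKM, nearer to MEOX2 sample 3 (159 FPKM) than to NC samples 1 and 2 (188 and 186 FPKM). Without it, ADM was not called (limma adjusted p = 0.0902), nor was any other hypoxia response gene, and PFKFB3 was the 1 glycolytic enzyme called, among 276 genes called in all (2.10%). The count of members moved by over 1.5 times was made for NC sample 3 alone. Small differences also moved when other libraries were left out. Without MEOX2 sample 1, PFKP, GAPDH and BNIP3 changed sign (-0.022, -0.061 and 0.0076).

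Genes next to the glycolytic chain were taken from lists of related genes. Of 12 genes of glucose entry and lactate export tested, SLC2A1 fell, the arrestin-domain gene ARRDC4, which glucose induces, rose, and 10 were not called. Over all genes tested, 2.67% were called. The MEOX2 and NC values did not overlap for 4 of these 12 (3 lower, 1 higher), against 18.9% of all genes. SLC2A1, the glucose transporter GLUT1 and a HIF target, was at 76.9, 81.4 and 85.7 FPKM in the MEOX2 samples and 101, 106 and 105 FPKM in the NC samples. The groups did not overlap, and the difference was -0.35 (SE 0.072, limma adjusted p = 0.0444). The SLC2A1 call ended when any 1 library was left out (limma adjusted p from 0.0809 to 0.148). ARRDC4 was at 334 ± 13.0 FPKM in MEOX2 cells and 237 ± 13.6 FPKM in NC cells (SD, n = 3 each), a log2 difference of 0.50 (SE 0.074, limma adjusted p = 0.0113). The second abundant transporter, SLC2A3, and the lactate exporter SLC16A3 were not called, SLC2A3 being at 113 ± 9.42 FPKM in MEOX2 cells and 114 ± 5.03 FPKM in NC cells, and SLC16A3 at 117 ± 4.58 FPKM in MEOX2 cells and 119 ± 12.4 FPKM in NC cells.

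Of 9 other glycolytic isozymes tested, ENO3, the enolase best known from muscle, rose and 8 were not called, against 2.67% of all genes called. At an unadjusted limma p under 0.05, 3 of the 9 were higher and 0 lower, against 7.08% and 6.35% of all genes. For 3 of the 9 every MEOX2 value lay above every NC value, against 9.60% of all genes, and 0 lay all under. The median difference of the 9 was 0.072. ENO3 was at 10.5 ± 0.681 FPKM in MEOX2 cells and 5.67 ± 0.869 FPKM in NC cells (SD, n = 3 each), a 1.85-fold difference (limma adjusted p = 0.0121) that kept its call whichever library was left out (0.0219 to 0.0494). Of 12 genes of pyruvate entry into mitochondria, PDK4 fell and 11 were not called, against 2.67% of all genes called. PDK4, a kinase that switches off pyruvate dehydrogenase and is induced by fasting and fatty acids, was at 3.51 ± 0.111 FPKM in MEOX2 cells and 7.35 ± 0.841 FPKM in NC cells (SD, n = 3 each; limma adjusted p = 0.00697). It too kept its call whichever library was left out (0.0143 to 0.0430), with 104 to 254 reads per library. PDK1, the member of that family most tied to HIF1, differed by 0.0018 (SE 0.074). None of 7 genes of the pentose phosphate pathway was called by limma or limma voom, and H6PD alone had an unadjusted limma p under 0.05, at 19.7 ± 1.56 FPKM in MEOX2 cells and 23.7 ± 1.85 FPKM in NC cells (SD, n = 3 each; adjusted p = 0.259). The MEOX2 and NC values did not overlap for 4 of these 7 (3 lower, 1 higher), against 18.9% of all genes.

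Limma called 0 of 11 HIF regulators tested. A single one had an unadjusted limma p under 0.05, and the same one was called by limma voom. That gene was CITED2, a HIF target that competes with HIF for a coactivator, at 40.4 ± 5.87 FPKM in MEOX2 cells and 55.6 ± 4.53 FPKM in NC cells (SD, n = 3 each; limma adjusted p = 0.0865). Of 29 further hypoxia targets, CA12, AKAP12 and SLC2A1 fell, BHLHE40 rose and 25 were not called. Of all genes tested, 2.67% were called. Limma voom called 4 of the 29 lower and 2 higher, against 2.04% and 2.13% of all genes. The MEOX2 and NC values did not overlap for 6 of the 29 (4 lower, 2 higher), against 18.9% of all genes. CA12, a membrane carbonic anhydrase related to CA9, was at 237 ± 2.85 FPKM in MEOX2 cells and 324 ± 4.25 FPKM in NC cells (SD, n = 3 each), a difference of -0.45 (SE 0.063, limma adjusted p = 0.00919). BHLHE40, a transcriptional repressor induced by hypoxia and many other signals, was at 74.0 ± 4.20 FPKM in MEOX2 cells and 50.4 ± 2.08 FPKM in NC cells (limma adjusted p = 0.00920). AKAP12, a scaffold for protein kinase A, was at 1.65 ± 0.234 FPKM in MEOX2 cells and 3.32 ± 0.307 FPKM in NC cells (limma adjusted p = 0.0335), and no fit with 1 library fewer called it (0.0583 to 0.132). Without NC sample 1, CA12, BHLHE40 and ARRDC4 were not called (limma adjusted p = 0.0582, 0.0549 and 0.0638), nor without MEOX2 sample 3 (0.0529, 0.0529 and 0.0514). The median difference of the 29 targets was -0.048.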

How the data were processed

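RNA sequencing values of 6 sheep samples were read from 1 table. The authors deposited FPKM values with gene coordinates, lengths and names. Without their roles, the tools were, per the submitters' processing notes, DESeq2 1.20.0, CASAVA 1.8, HISAT2 2.0.5, fastp and featureCounts 1.5.0-p3. Per the labels' protocols, TRIzol was used for extraction and an NEBNext Ultra kit for the libraries. The sources used here name no genome build, annotation or strand setting.

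FPKM multiplied by gene length gave whole multiples of 1 step for 100% of positive values (within 0.001 of a read), which recovers the reads per gene. The implied library size was 0.967 to 1.02 times the reads. Log2(FPKM + 1) values were fitted by limma 3.58.1 under R 4.3.3 (lmFit, eBayes with an intensity trend, no covariates). The script was tested on simulated reads. Chi-square per gene between replicates was 3.62 to 11.8, above the 1 of sampling noise, so replicates differed by more than read sampling. The highest value was that of NC samples 2 and 3. All libraries were kept, and this value is no check of their quality.

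Members, lists and tests were chosen with earlier results of these data known. Every member present but LDHB was given with its level, and values in every sample and test values for members past the threshold and the 5 others with the smallest p in each member group. Also named were called genes of the related lists or otherwise up to 2 with the smallest p, MEOX2 and fixed cell markers; ENG, SLC2A3, SLC16A3, PDK1, PGAM4, LEP and RETN, and the values of GAPDH in every sample, were chosen after these were seen. List symbols were matched by symbol (167), by RefSeq synonym (3) or through a hand-made alias (4), leaving 22 unmatched. Tables and figures were made with matplotlib 3.10.9 and pandas 2.3.3 in Python 3.11.15. Alternatives were other pseudocounts, filters, scalings and variance settings, a replicate block, limma voom on the recovered reads, and leaving out each library. Depth was 11772772 to 12230863 reads per library.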

Additional observations from a re-analysis of the deposited data

How the results depend on the processing

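MEOX2 kept its call in every setting run, with a log2 difference of 3.49 to 3.74 when 1 library was left out. The number of genes called, 350, was 194 with no filter on low genes and 547 with limma voom, and 117 to 276 with 1 library left out. The count of glycolytic enzymes called, 1, was 0 with no filter, without the intensity trend and with the replicate block, and 0 to 1 with 1 library left out. With no filter, without the trend and with the block, the limma adjusted p of PFKFB3 was 0.0624, 0.0692 and 0.0746. The count of hypoxia response genes called, 1, was 0 with a pseudocount of 0.1 or 0.5, with no filter, with median centring, with quantile normalization, with TPM scaling, without the trend and with the replicate block, was 4 with limma voom, and was 0 to 1 with 1 library left out. The limma adjusted p of ADM ranged from 0.0299 with a filter of 5 FPKM to 0.143 with no filter, and was 9.82e-04 with limma voom. ADM kept its sign in all of them, and the cause of the differences in calls was not tested. The median difference of the hypoxia response genes was -0.10 to -0.029 with 1 library left out, and that of the glycolytic enzymes -0.061 to 0.0044.

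Members with differences near 0 changed sign in some settings and were not called in any. With quantile normalization TPI1 was at 0.015, PGK1 at 0.025 and BNIP3 at 0.015, and with limma voom GAPDH was at -0.0059. With 1 library left out the differences ranged from -0.0025 to 0.077 for HK1, -0.050 to 0.086 for PFKM, -0.038 to 0.091 for PFKP, -0.13 to 0.0044 for ALDOC, -0.14 to 0.048 for TPI1, -0.061 to 0.053 for GAPDH, -0.085 to 0.027 for LDHA, -0.15 to 0.027 for BNIP3, -0.10 to 0.0081 for P4HA1 and -0.071 to 0.14 for HIF1A.

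Samples with the same replicate number did not deviate together (correlations of -0.075 to 0.020), so the numbers were not taken to pair the samples; the replicate block gave 242 calls in all. Fits with a library left out have fewer samples, and a call lost there need not rest on that library. With 3 samples a group, the 95% intervals above bound what could be seen.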
